A study of Mus musculus with 3 samples.

Results

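The 40 genes described here make, take up, store and export cholesterol and make fatty acids in mouse macrophages. They were listed by gene symbol as genes of these pathways, with earlier results of these data known, and are 40 of the 55536 annotated genes in the deposited gene table, 22028 of which are protein-coding. By role they comprise 5 regulators, 16 enzymes of cholesterol synthesis, 9 of fatty acid synthesis, 5 genes of uptake and transfer, 2 of esterification and oxysterol formation, and 3 of cholesterol efflux. The cells were macrophages grown from bone marrow of C57BL/6J mice, and total RNA of their cytosolic fraction was sequenced after removal of ribosomal RNA. Lipid A, the membrane anchor of lipopolysaccharide and the portion sensed by TLR4, was given to all cells at 100 ng/ml for 12 h, washed out for 12 h, and given again at 100 ng/ml for 90 min. There are 3 libraries in 1 group, labelled as biological replicates 1 to 3 of the same donor record, so the spread between them may be partly technical. Age and sex were not collected. No unexposed or once-exposed cells were analysed here, so every value is a level in twice-exposed cells and not a response to Lipid A.

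Cells regulate sterols through SREBP transcription factors, which are held in the endoplasmic reticulum by Scap and the Insig proteins while sterols are plentiful. When sterols fall, Scap carries SREBP to the Golgi, where it is cut and released to switch on genes of cholesterol and fatty acid synthesis. Liver X receptors work in the other direction: they are activated by oxysterols and switch on the exporters Abca1 and Abcg1, and also Srebf1. Macrophages take in large amounts of lipoprotein and debris, so storage as cholesteryl ester and export to lipoprotein acceptors are prominent parts of their lipid handling, and TLR4 ligands are known to alter several of these genes.

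The libraries held 40637857, 70407572 and 49678390 expected counts over annotated genes in replicates 1, 2 and 3, of which 320115, 601551 and 450974 fell on the 40 genes. All 8 macrophage markers were detected, with a summed level of 4893 to 5552 TPM. None of the 4 adipocyte, 5 stromal and 4 neutrophil markers was detected, and their summed levels were 0 to 0.01, 0.03 to 0.12 and 0.21 to 0.35 TPM. The defining markers of those cells that also make or store lipid were thus at or near 0. TPM is transcript abundance corrected for length and scaled to a fixed total over all RNA in the library, and nuclear protein-coding genes took 33.2, 29.6 and 28.0% of it in replicates 1, 2 and 3. Rescaling over those genes alone multiplied a level by 3.33 ± 0.28 (SD, n = 3).

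By median level, the genes of efflux and those of uptake and transfer stood above those of cholesterol and fatty acid synthesis in every library. In such bulk samples a gene expressed by fewer cells and a gene with less RNA per cell cannot be told apart. With detection set at 1 TPM or above in each of the 3 libraries, 38 of the 40 were detected, where 40.1% of annotated protein-coding genes passed the same threshold. At 10 TPM or more in all libraries there were 18 of 40, beside 16.6% of protein-coding genes. The median level of the 40 genes was 9.24 TPM, close to the 8.51 TPM of all detected protein-coding genes, so the set spans the ordinary range rather than sitting at its top. That median hides a division by role. The 3 efflux genes had a median of 85.4 TPM and all 3 passed 10 TPM. Of the 5 genes of uptake and transfer, 4 passed 10 TPM, with a median of 40.04 TPM. Of the 16 cholesterol synthesis genes all were detected but 3 passed 10 TPM, with a median of 7.18 TPM.

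**Figure D1:**
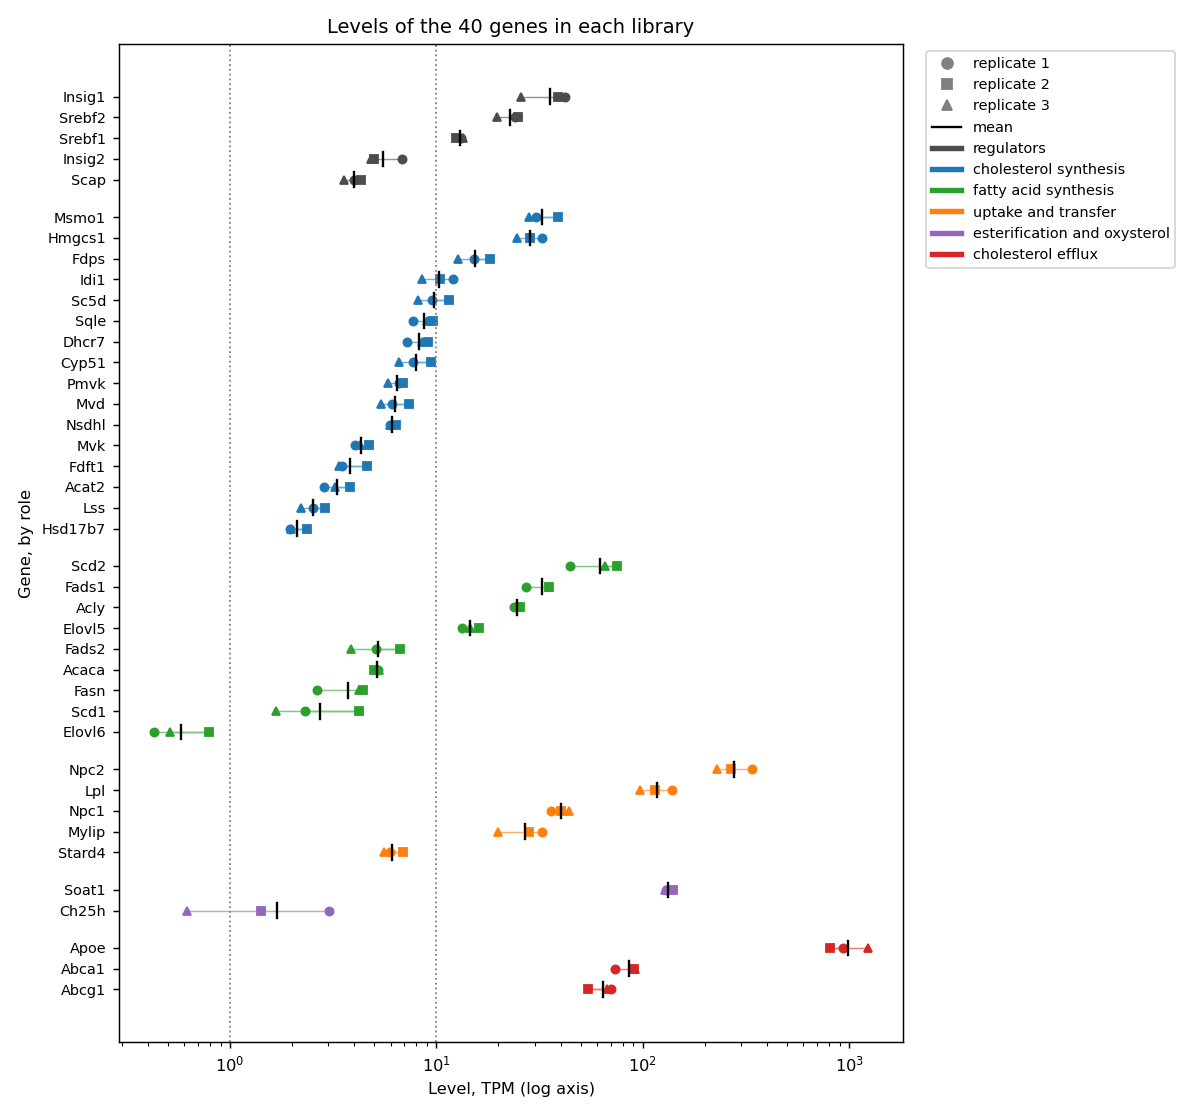
Level of each of the 40 genes in TPM (log axis) in the 3 libraries, grouped by role and ordered by mean, with the black tick at the mean and dotted lines at 1 and 10 TPM. Apoe stands at 806 to 1231 TPM, the cholesterol synthesis genes lie between 1.96 and 38.9 TPM, and Ch25h and Elovl6 are the 2 genes below 1 TPM in at least 1 library.

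The regulators were led by Insig1, the sterol-induced protein that retains the Scap and SREBP complex, and all 5 were detected. Insig1 (chr5:28071363-28078662, plus strand, mm10) had 42.0, 38.7 and 25.8 TPM in replicates 1, 2 and 3. Its relative Insig2 (chr1:121304353-121332589, minus strand) had 6.80, 4.97 and 4.81 TPM. Insig1 was above Insig2 in all 3 libraries, by 2.67 ± 0.27 on the log2 scale (SD, n = 3) or 6.36-fold. Scap, the sterol sensor and escort of SREBP, had 4.01, 4.32 and 3.58 TPM. It lay below Insig1 in each library, with a log2 ratio of Scap over Insig1 of −3.13 ± 0.27 (SD, n = 3).

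Srebf2 (chr15:82147181-82205379, plus strand), which encodes the SREBP chiefly tied to cholesterol synthesis, had 23.9, 24.8 and 19.8 TPM. Srebf1 (chr11:60199089-60222581, minus strand), whose products act on fatty acid and sterol genes, had 13.1, 12.4 and 13.5 TPM. The ranges did not overlap, and Srebf2 exceeded Srebf1 by 0.81 ± 0.23 on the log2 scale (SD, n = 3), or 1.75-fold. Srebf1 was among the steadiest of the 40 genes, with a coefficient of variation of 4.08%. Of Srebf2, 19.6 ± 0.52% of TPM fell on Srebf2-205, a transcript annotated as retaining an intron, and the second transcript table gave 20.0 ± 0.36% (SD, n = 3 each).

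Srebf1 has 2 main start sites that give 2 forms of the protein. SREBP-1a has the longer activation domain and is the stronger activator, while SREBP-1c is the form that predominates in liver and that liver X receptors and insulin induce. The annotated transcript Srebf1-201 encodes the 1a form, with 29 residues ahead of the part that both share, and Srebf1-207 encodes the 1c form, with 5 residues there, by translation of the GENCODE M21 transcripts. Their first bases, chr11:60220604 and chr11:60210465 on the minus strand, are 10139 bases apart, so these windows of the RefSeq promoter table (GRCm38.p6, 250 bases before to 50 after an annotated start) show 2 separate promoters of 1 gene. They are printed 5′ to 3′ on the gene's strand, with capitals marking a CCAAT box in either orientation (CCAAT or ATTGG).

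Srebf1 upstream window, chr11:60220578-60220877, minus strand: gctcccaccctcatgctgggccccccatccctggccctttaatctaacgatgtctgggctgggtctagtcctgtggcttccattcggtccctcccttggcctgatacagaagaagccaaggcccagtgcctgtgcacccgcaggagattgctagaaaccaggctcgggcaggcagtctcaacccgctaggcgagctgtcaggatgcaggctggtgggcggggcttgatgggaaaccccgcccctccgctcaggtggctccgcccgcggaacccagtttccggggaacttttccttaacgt

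Srebf1 downstream window, chr11:60210422-60210721, minus strand: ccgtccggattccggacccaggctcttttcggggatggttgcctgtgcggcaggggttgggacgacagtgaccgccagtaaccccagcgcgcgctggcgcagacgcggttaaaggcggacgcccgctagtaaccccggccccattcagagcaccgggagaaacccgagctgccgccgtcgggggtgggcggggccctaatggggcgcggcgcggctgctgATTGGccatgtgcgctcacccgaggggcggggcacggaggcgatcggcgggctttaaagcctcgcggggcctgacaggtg

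The upstream window, whose annotated start lies 23 bases from that of Srebf1-201, held no CCAAT box and 3 GC boxes (GGGCGG, either strand). The downstream window, 6 bases from the start of Srebf1-207, held 1 CCAAT box and 2 GC boxes. Neither held the 9-letter sterol regulatory element searched here (TCACNCCAC, either strand), which says only that those letters are absent from these windows. A further Srebf1 window, chr11:60222532-60222831, lies upstream of both, at the start of the noncoding Srebf1-204, and is not printed. That window held 1 CCAAT box and no GC box.

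Of the annotated 1a and 1c transcripts, the 1a transcript had the higher level in every library. Srebf1-201 had 9.72, 9.63 and 9.70 TPM in replicates 1, 2 and 3, and took 74.0, 77.5 and 72.1% of the gene's TPM. Srebf1-207 had 1.85, 1.75 and 1.97 TPM, or 14.1, 14.1 and 14.7%. Srebf1-201 was thus 2.38 ± 0.08 higher than Srebf1-207 on the log2 scale (SD, n = 3), 5.22-fold. In the second transcript table, which was made directly from the reads, the same ratio was 1.20 ± 0.13 (SD, n = 3), 2.29-fold. The direction was the same in both tables and all 3 libraries, while the size depended on the table. The annotated Srebf1-207 is also shorter (3177 nt, against 4299 nt for Srebf1-201), with 1022 translated residues against 1134. On the minus strand it ends at chr11:60200463, before the end of Srebf1-201 at chr11:60199089. Reads beyond that end cannot be assigned to Srebf1-207, even if they came from a longer 1c RNA. The ratio may thus overstate the 1a form, which was not tested. The short noncoding Srebf1-204 took 2.44% of TPM in the first table and 14.6% in the second.

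The 16 enzymes of cholesterol synthesis were detected without exception, all at low to moderate levels, and summed to 156, 175 and 139 TPM in replicates 1, 2 and 3. The highest by mean was Msmo1 (chr8:64718139-64733792, minus strand), a methyl sterol oxidase late in the pathway, with 30.6, 38.9 and 28.2 TPM. Hmgcs1 (chr13:119690379-119708260, plus strand), the cytosolic synthase that makes the HMG-CoA from which mevalonate derives, had 32.6, 28.5 and 24.7 TPM. It was above Msmo1 in replicate 1. Transcripts annotated as protein-coding took 65.3% of the TPM of Msmo1 and 99.7% of that of Hmgcs1, so their order depends on the transcripts counted. Fdps, the farnesyl diphosphate synthase that also feeds protein prenylation, had 15.3, 18.2 and 12.8 TPM. These 3 were the members of the list at 10 TPM or more in all libraries.

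At the low end stood Lss, the cyclase that makes lanosterol, with 2.52, 2.89 and 2.20 TPM, and Hsd17b7, a 3-ketosteroid reductase, with 1.96, 2.37 and 1.98 TPM. Acat2, the cytosolic thiolase that supplies acetoacetyl-CoA, had 2.85, 3.81 and 3.22 TPM. Sqle (squalene epoxidase, a control point of the pathway) had 7.68, 9.60 and 8.98 TPM. Sqle thus lay between Hmgcs1 and Lss in level. Hmgcs1 exceeded Sqle by 1.70 ± 0.34 on the log2 scale, and Sqle exceeded Lss, the next enzyme, by 1.79 ± 0.22 (SD, n = 3 each). Both ratios kept their sign in 3 of 3 libraries. Counting for each gene only the transcript with the most reads (its leading transcript), Hmgcs1 exceeded Sqle by 1.05 ± 0.26 (SD, n = 3).

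The other 9 enzymes had mean levels between those extremes, from 3.82 TPM for Fdft1 (squalene synthase) to 10.3 TPM for Idi1 (isopentenyl diphosphate isomerase). Mvk, Pmvk and Mvd, the kinases and decarboxylase of the mevalonate segment, had 4.33 ± 0.36, 6.42 ± 0.55 and 6.29 ± 0.99 TPM. The sterol-modifying enzymes Cyp51, Nsdhl, Sc5d and Dhcr7 had 7.93 ± 1.44, 6.10 ± 0.21, 9.72 ± 1.73 and 8.26 ± 0.98 TPM (SD, n = 3 each). Many of these means lie within each other's spread, so no order among them is drawn. No source used here says whether counting used strand, which leaves genes with an expressed partner on the other strand uncertain. Fdft1 had at most 1500 counts in a library and overlaps exons of Ctsb, which had up to 988009 counts and a mean of 2109 TPM. Exons of Cyp51 overlap those of Akap9 (4.94 TPM), those of Srebf1 overlap Rai1 (2.08 TPM), and those of Npc1 overlap Rmc1 (7.19 TPM).

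The printed start of Hmgcs1 shows the sequence arrangement for which sterol genes are known, a sterol regulatory element near CCAAT boxes, where the factor NF-Y binds beside SREBP. Insig1 is printed beside it as the sterol-responsive regulator with the highest level, and Abca1 as an exporter driven by liver X receptors. Capitals mark the sterol regulatory element, CCAAT boxes (CCAAT or ATTGG) and E-boxes (CACGTG), and all are RefSeq GRCm38.p6 windows printed on the gene's strand.

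Hmgcs1, chr13:119690101-119690400, plus strand: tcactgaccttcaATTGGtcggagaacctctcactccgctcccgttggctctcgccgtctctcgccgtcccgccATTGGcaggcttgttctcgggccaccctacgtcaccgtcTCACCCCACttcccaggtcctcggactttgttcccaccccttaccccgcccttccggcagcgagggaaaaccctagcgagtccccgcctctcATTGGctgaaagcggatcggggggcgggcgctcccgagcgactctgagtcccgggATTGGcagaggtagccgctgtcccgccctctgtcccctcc

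Insig1, chr5:28071162-28071461, plus strand: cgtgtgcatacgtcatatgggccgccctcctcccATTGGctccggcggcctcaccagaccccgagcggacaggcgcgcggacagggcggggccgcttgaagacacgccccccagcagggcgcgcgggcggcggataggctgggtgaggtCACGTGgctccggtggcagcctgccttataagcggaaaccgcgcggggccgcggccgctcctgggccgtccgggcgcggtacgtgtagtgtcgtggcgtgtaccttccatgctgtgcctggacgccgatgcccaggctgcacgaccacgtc

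Abca1, chr4:53159846-53160145, minus strand: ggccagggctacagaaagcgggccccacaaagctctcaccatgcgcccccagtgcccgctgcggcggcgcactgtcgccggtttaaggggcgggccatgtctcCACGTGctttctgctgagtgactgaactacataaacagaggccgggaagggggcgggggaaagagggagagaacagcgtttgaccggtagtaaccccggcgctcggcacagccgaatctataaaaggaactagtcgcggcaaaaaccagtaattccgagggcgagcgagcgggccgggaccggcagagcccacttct

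The Hmgcs1 window held 1 sterol regulatory element and 4 CCAAT boxes. The Insig1 window held 1 CCAAT box and 1 E-box, and the Abca1 window 1 E-box and no CCAAT box. The promoter table matched 30 of the 40 genes by symbol, with 40 windows. A CCAAT box stood in at least 1 window of 22 of these 30 genes (73.3%), beside 41.1% of the 27025 genes in the table and 42.9% of the 7084 detected protein-coding genes in it. By role the count was 12 of 13 cholesterol synthesis genes, 4 of 5 regulators, 3 of 6 fatty acid synthesis genes, 2 of 2 genes of uptake and transfer, 1 of 2 of esterification and oxysterol formation, and 0 of 2 efflux genes. The windows were rich in G and C (median 62.2%, beside 52.7% of all windows), and a GC box stood in 76.7% of the 30 genes, beside 70.4% of detected protein-coding genes. An E-box stood in 7 of 30 (23.3%, beside 12.8% of detected genes), and the exact sterol regulatory element in 1 of 30 (3.33%, beside 1.37%). A gene with several windows had more chances of a match, and these are matches of letters, not shown binding sites.

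Among the 9 genes of fatty acid synthesis 8 were detected and 4 reached 10 TPM, and the list divided between related enzymes rather than sharing a level. Scd2 (chr19:44293674-44306864, plus strand), a stearoyl-CoA desaturase that makes monounsaturated fatty acids, had 44.2, 75.1 and 66.0 TPM in replicates 1, 2 and 3. Its neighbour Scd1 (chr19:44394455-44407879, minus strand), the form best known from liver and fat, had 2.31, 4.23 and 1.68 TPM. Scd2 exceeded Scd1 by 4.57 ± 0.63 on the log2 scale (SD, n = 3), 23.7-fold. The counts of both were not whole numbers, as happens where reads are divided between alike sequences. The deposited posterior SD was at most 0.0785% of the Scd1 count, and the second transcript table gave a log2 ratio of 4.45, close to that of the gene table.

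The elongases differed as widely. Elovl5, which extends polyunsaturated chains, had 13.3, 16.1 and 14.5 TPM, and Elovl6, which extends saturated chains made by fatty acid synthase, had 0.43, 0.79 and 0.51 TPM and was not called detected. Elovl5 exceeded Elovl6 by 4.71 ± 0.32 on the log2 scale (SD, n = 3), 26.1-fold, and by 3.31 ± 0.05 with a pseudocount of 1 TPM. Elovl6 still had 152, 489 and 249 counts in the libraries, so its low level was measured and not missing. Fads2, the desaturase that opens the route to arachidonic acid, had 5.11, 6.67 and 3.84 TPM, and Fads1, which acts later on that route, had 27.2, 35.1 and 35.2 TPM. The log2 ratio of Fads2 over Fads1 was −2.67 ± 0.46 (SD, n = 3), so the earlier enzyme had the lower RNA level in all libraries.

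The core enzymes of new fatty acid synthesis had lower levels at each later step. Acly, which makes cytosolic acetyl-CoA from citrate, had 23.7, 25.4 and 25.0 TPM. Fasn, fatty acid synthase, had 2.63, 4.41 and 4.21 TPM. Acaca, the carboxylase that makes its substrate malonyl-CoA, had 5.19, 4.97 and 5.25 TPM. Acly exceeded Fasn by 2.76 ± 0.36 on the log2 scale (SD, n = 3). Fasn lay below Acaca by less, with a log2 ratio of −0.98, −0.17 and −0.32 in replicates 1, 2 and 3 (mean −0.49 ± 0.43), while leading transcripts gave −1.27 ± 0.30 and the second table −1.22 ± 0.25 (SD, n = 3 each).

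Of the genes of uptake and transfer, all 5 were detected. None of the 5 is a lipoprotein receptor, so their level does not measure uptake of lipoprotein by receptors. Npc2 (chr12:84754562-84773152, minus strand), the soluble lysosomal carrier that hands cholesterol to the membrane protein Npc1, had 338, 267 and 229 TPM. Npc1 (chr18:12189692-12236400, minus strand) had 36.0, 40.4 and 43.8 TPM. Npc2 exceeded Npc1 by 2.78 ± 0.42 on the log2 scale (SD, n = 3), 6.88-fold, or by 3.48 ± 0.39 (SD, n = 3) counting the transcript of each gene with the most reads alone. Npc2 was highest in replicate 1, the library in which Npc1 was lowest. Lpl, the secreted lipase that releases fatty acids from lipoproteins, had 139, 115 and 97.1 TPM.

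Mylip, a ubiquitin ligase that marks lipoprotein receptors for degradation and is induced by liver X receptors, had 32.7, 28.0 and 20.0 TPM. Stard4, a cytosolic sterol carrier and a known SREBP target, was the lowest of the group with 5.93, 6.86 and 5.56 TPM, a level like that of the synthesis genes. Mylip lay below Abca1, another liver X receptor target, with a log2 ratio of −1.69 ± 0.51 (SD, n = 3). That ratio differed between libraries, at −1.17, −1.70 and −2.20 in replicates 1, 2 and 3, and Mylip was highest in the library in which Abca1 was lowest. Lpl likewise lay below Apoe, a lipoprotein component, with log2 ratios of −2.75, −2.81 and −3.66 (mean −3.08 ± 0.51) and −2.36 ± 0.55 by leading transcript (SD, n = 3 each).

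The efflux genes had the highest median and the highest summed level of the 6 roles. Most of that sum, 1141 TPM on average, was Apoe with 991 TPM, while Abca1 and Abcg1 averaged 85.4 and 64.1 TPM. The uptake and transfer genes summed to 468 TPM. Abca1 (chr4:53030787-53159895, minus strand), which loads cholesterol onto lipid-poor apolipoprotein A-I, had 73.6, 91.0 and 91.6 TPM. Abcg1 (chr17:31057675-31117988, plus strand), which exports to mature high-density lipoprotein, had 70.5, 54.6 and 67.3 TPM. The ranges of the exporters did not overlap but came close in replicate 1, where the log2 ratio of Abca1 over Abcg1 was 0.06, and in replicates 2 and 3 it was 0.74 and 0.45 (mean 0.41 ± 0.34, SD, n = 3). Apoe (chr7:19696109-19699188, minus strand), the apolipoprotein that macrophages secrete as a cholesterol acceptor, had 936, 806 and 1231 TPM and stood at percentile 99.7 of detected protein-coding genes. Abca1 lay far below Apoe per length, with a log2 ratio of −3.52 ± 0.33 by gene and −2.81 ± 0.35 by leading transcript (SD, n = 3 each). On counts that ratio was 0.07 ± 0.28 (SD, n = 3), since the Abca1 transcript is long and the Apoe transcript short.

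Soat1 and Ch25h, the 2 genes of esterification and oxysterol formation, were far apart in level. Ch25h (chr19:34473778-34475164, minus strand), which makes the antiviral oxysterol 25-hydroxycholesterol and is known as an interferon target, had 3.02, 1.41 and 0.62 TPM. Its level was below 1 TPM in replicate 3, and it was therefore not called detected. Soat1 (chr1:156424525-156474331, minus strand), which esterifies cholesterol for lipid droplets, had 130, 140 and 129 TPM and the smallest spread of the 40 genes in scaled counts, 1.06-fold from the lowest to the highest library. The log2 ratio of Ch25h over Soat1 was −5.43, −6.63 and −7.70 in replicates 1, 2 and 3 (mean −6.58 ± 1.14, SD, n = 3), which is the widest spread of the 18 pairs, and averaged −5.63 by leading transcript and −5.74 with a pseudocount of 1 TPM. Acat2 here is the thiolase of the synthesis list and not a sterol esterifying enzyme, for which the same abbreviation has been used. The log2 ratio of Acat2 over Soat1 was −5.34 ± 0.16 by gene and −4.43 ± 0.18 by leading transcript (SD, n = 3 each).

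Part of the Soat1 level came from a short transcript. Soat1-201 (2925 nt) took 51.5% of the gene's TPM and 69.4% of its counts, while Soat1-206, a transcript of 366 nt annotated as protein-coding, took 36.7% of TPM and 2.54% of counts (means of 3 libraries). Counted by gene, Soat1 exceeded Abca1 in all libraries, by 0.64 ± 0.17 on the log2 scale. Counted by the transcript with the most reads alone, Soat1-201 had 70.9, 69.4 and 64.7 TPM and Abca1-201 had 73.6, 89.5 and 91.3 TPM, and the ratio turned to −0.31 ± 0.23 (SD, n = 3 each). That setting leaves out every other transcript of both genes. With Soat1-206 alone left out, Soat1 had 87.2, 86.1 and 78.8 TPM, and the log2 ratio over Abca1 was 0.25, −0.08 and −0.22 in replicates 1, 2 and 3 (mean −0.02 ± 0.24, SD, n = 3), so neither gene was the higher in all libraries. The second table gave Soat1-206 a similar share, 36.4 ± 2.68% of TPM beside 36.7 ± 3.33% in the first (SD, n = 3 each).

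**Figure D2:**
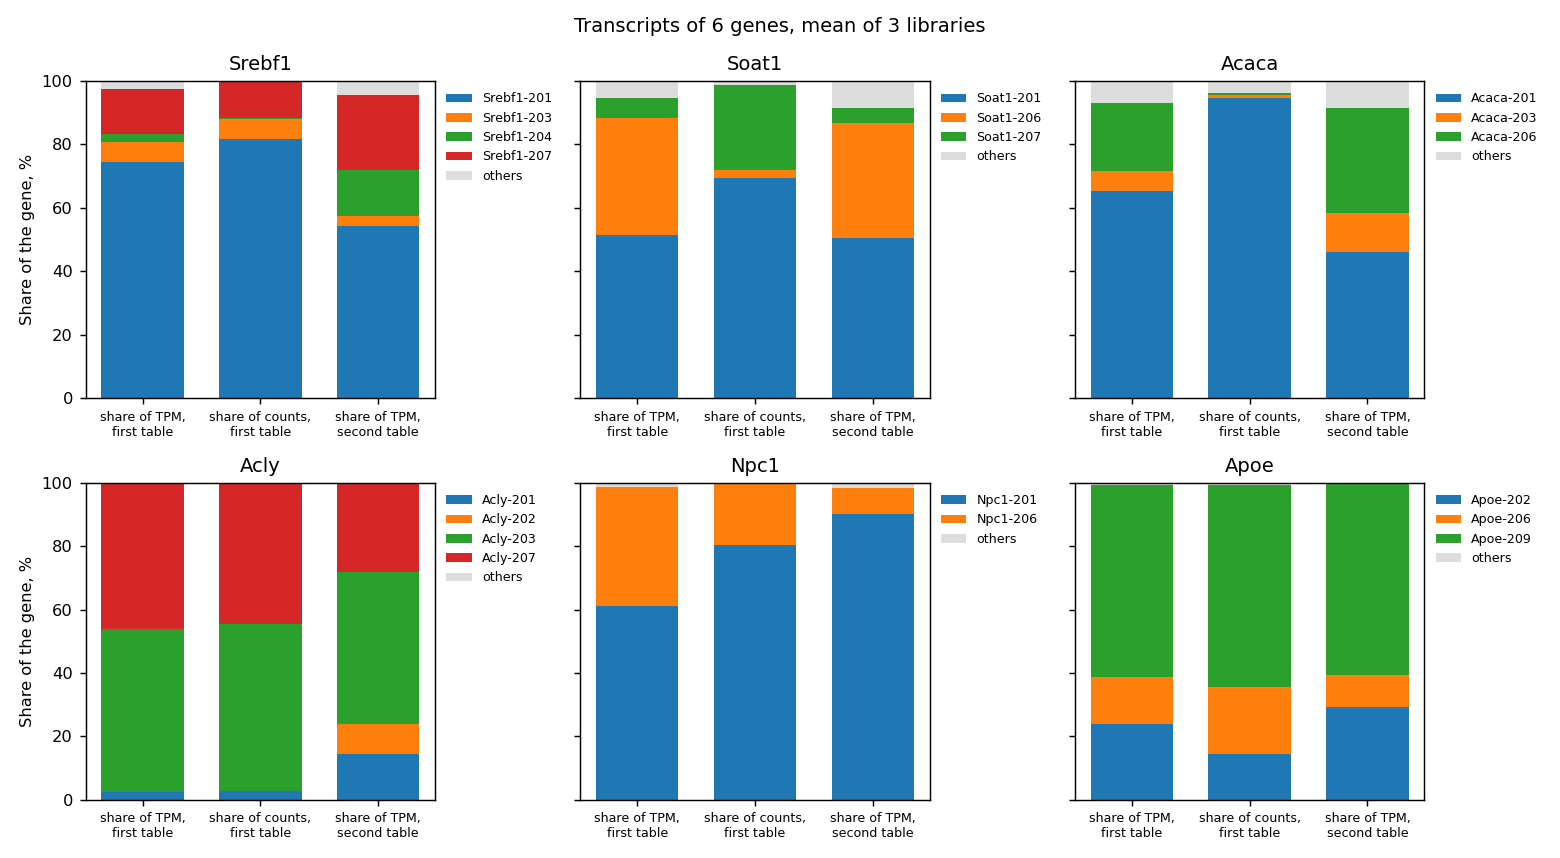
Share of 6 genes taken by each annotated transcript (mean of 3 libraries, percent) as a share of TPM in the first table, of counts in the first table, and of TPM in the second table; the remaining transcripts are pooled in grey. Soat1-206 takes 36.7% of TPM and 2.54% of counts, Npc1-206 takes 37.5% of TPM in the first table and 8.30% in the second, and Srebf1-201 leads Srebf1-207 in both tables.

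Transcript use was otherwise simple for many of the genes. In 21 of 40 (52.5%) a single transcript took 90% or more of the gene's TPM, beside 41.9% of detected protein-coding genes. Transcripts annotated as protein-coding took a median of 99.6% of TPM over the 40 genes, beside 98.5%. They took under 80% in 4 genes (10% of the 40, beside 16.6% of detected protein-coding genes), namely Npc1 with 61.2%, Msmo1 with 65.3%, Apoe with 76.1% and Fasn with 76.3%. In Npc1 the rest was Npc1-206, annotated as retaining an intron, with 35.1, 40.1 and 37.3% of TPM in replicates 1, 2 and 3. The second table gave it 7.8, 10.4 and 6.8%, so its share differed between the tables.

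In Apoe the processed transcript Apoe-202 took 23.8 ± 2.53% and 29.2 ± 2.69% in the first and second tables (SD, n = 3 each). In Acaca the short Acaca-206 (431 nt), which starts 15607 bases from Acaca-201 (9026 nt), took 21.6% of TPM and 0.707% of counts. In Acly, Acly-203 and Acly-207 were near equal, at 51.2 ± 2.07% and 46.0 ± 1.93% in the first table, against 48.1 ± 4.61% and 28.0 ± 2.64% in the second (SD, n = 3 each). In Fasn, Fasn-205 took 37.4 ± 8.50% in the first table and 75.7 ± 3.00% in the second (SD, n = 3 each). Summed to genes and rescaled over protein-coding genes, the second table differed from the gene table by more than 0.23 on the log2 scale in 3 of the 40 genes, which were Acaca (0.40), Fasn (−0.35) and Npc1 (−0.33).

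Set role against role within each library, efflux lay above synthesis, and so did the uptake and transfer list, whose median gene was Npc1. The median of log2(TPM + 1) over the efflux genes minus that over the cholesterol synthesis genes was 3.24, 3.32 and 3.67 in replicates 1, 2 and 3, a mean of 3.41 ± 0.23 (SD, n = 3) or 10.6-fold. Uptake and transfer exceeded cholesterol synthesis by 2.23, 2.17 and 2.62 (mean 2.34 ± 0.24), and efflux exceeded uptake and transfer by 1.01, 1.15 and 1.05 (mean 1.07 ± 0.07, SD, n = 3 each). Each of these kept its sign in every library and under each alternative tried. With 3 libraries an exact two-sided sign-flip test cannot go below p = 0.25, so no p-value is given.

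Fatty acid synthesis and cholesterol synthesis were not separated in that way. Their difference was −0.35, −0.26 and −0.22 in replicates 1, 2 and 3 (mean −0.28 ± 0.06, SD, n = 3). It turned to 0.34 ± 0.09 when the undetected Elovl6 was left out and to 0.21 ± 0.12 with the mean over each list in place of the median (SD, n = 3 each). Summed levels were 151 ± 24.7 TPM for fatty acid synthesis and 156 ± 18.1 TPM for cholesterol synthesis, within each other's spread.

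**Figure D3:**
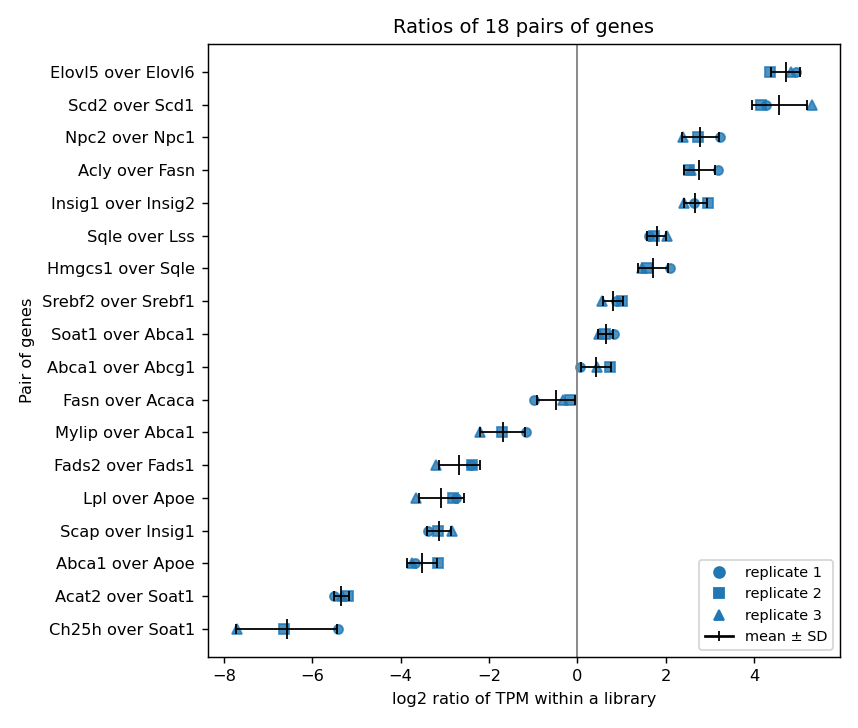
Ratio of TPM within a library for 18 pairs of genes on the log2 scale, with 1 symbol per replicate and the black bar at mean ± SD (n = 3). Each pair keeps its sign in all 3 libraries, from Elovl5 over Elovl6 at 4.71 to Ch25h over Soat1 at −6.58, and Abca1 over Abcg1 comes nearest to 0, at 0.06 in replicate 1.

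The libraries were then asked which of the genes varied more between them than genes of like abundance do. The test (edgeR, residual deviance of a 1-group negative binomial fit at the trended dispersion, Benjamini-Hochberg adjustment) called 240 of 12256 genes at an adjusted p under 0.05, or 1.96%. It called 2 of the 40, Ch25h and Scd1. At an unadjusted p under 0.05 there were 4 of the 40 (10%), with Scd2 and Fads2 added, beside 6.88% of all genes tested. No regulator and no gene of cholesterol synthesis, of uptake and transfer or of efflux had an unadjusted p under 0.05 in that test.

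Ch25h had 216, 194 and 63 counts in replicates 1, 2 and 3, which is 5.57, 2.68 and 1.25 CPM (counts scaled to library size, here after TMM scaling, edgeR's correction for library composition). The highest library was 4.46-fold above the lowest, with an adjusted p of 0.00493 in edgeR. Without replicate 1 the adjusted p was 0.621 and without replicate 3 it was 0.586, so the call rests on those libraries together. Beside it, the interferon gene Ifnb1 had 26.5, 5.81 and 4.54 TPM and the interferon-induced chemokine Cxcl10 had 1907, 679 and 656 TPM. Both were highest in replicate 1, as Ch25h was and as 48% of detected protein-coding genes were in TPM. Between replicates 2 and 3 both differed less in proportion than Ch25h, which had 1.41 and 0.62 TPM there. Neither gene is on the planned gene lists, and their part in the Ch25h difference was not tested.

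Scd1 had 17.1, 26.8 and 11.4 TMM-scaled CPM in replicates 1, 2 and 3, a 2.36-fold range with an adjusted p of 0.00875 in edgeR. Without replicate 2 the adjusted p was 1 and without replicate 3 it was 0.705, and with a common dispersion it was 0.0525. Its neighbour Scd2 had 372, 643 and 604 scaled CPM, with an adjusted p of 0.677 in edgeR. Scd1 was lowest in replicate 3 and Scd2 in replicate 1, so the paralogs did not share their lowest library. Fads2 had 24.0, 32.0 and 19.6 scaled CPM (adjusted p = 0.595 in edgeR).

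**Figure D4:**
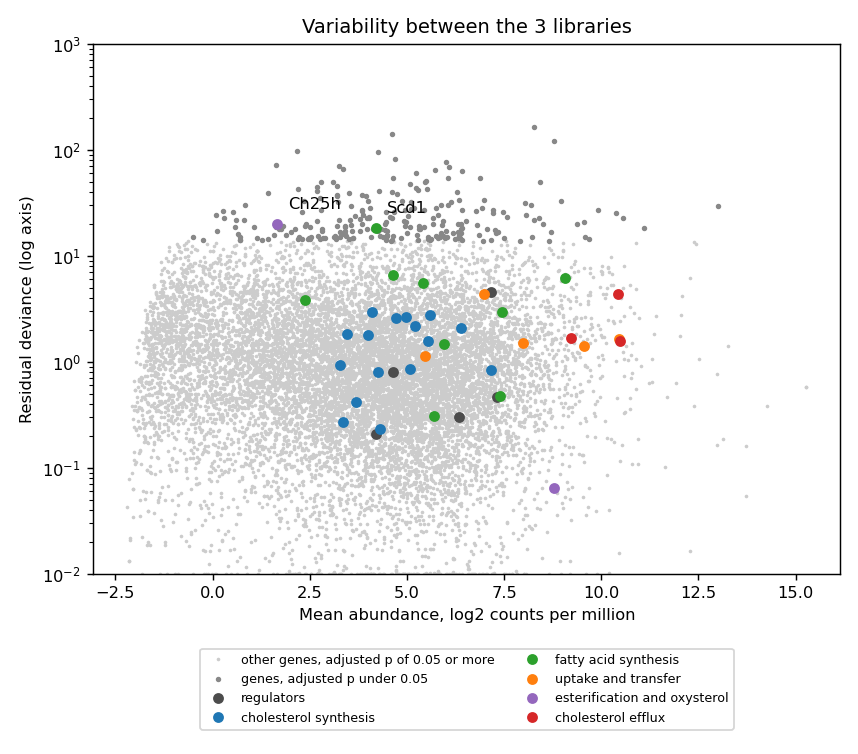
Residual deviance between the 3 libraries (log axis) against mean abundance (log2 CPM) for 12256 genes, with the genes described here coloured by role and genes called at an adjusted p under 0.05 in dark grey. Ch25h and Scd1 lie among the called genes, and the other 38 lie below them.

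At the steady end, Soat1, Nsdhl, Insig2, Acaca and Srebf1 ranged 1.06-fold to 1.11-fold between libraries in scaled counts. In TPM, Insig2 was not steady, with a 1.41-fold range and a coefficient of variation of 20.0%. The median coefficient of variation of TPM over the 40 genes was 14.4%, beside 10.1% over detected protein-coding genes. Within that spread the roles had different patterns over the libraries. In TMM-scaled counts 11 of the 16 cholesterol synthesis genes were highest in replicate 2 and none was lowest there, beside 32.1% of all genes tested that were highest and 30.0% that were lowest in replicate 2. Their median deviation from the 3-library mean was −0.08, 0.14 and −0.11 on the log2 scale in replicates 1, 2 and 3. Hmgcs1 and Idi1 were highest in replicate 1, while Sqle, Dhcr7 and Nsdhl were highest in replicate 3. In TPM the count highest in replicate 2 was 14 of 16, beside 38.5% of detected protein-coding genes.

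Of the 9 fatty acid synthesis genes 7 were lowest in replicate 1 in scaled counts, beside 38.3% of all genes tested, and in TPM 6 were, beside 24.1% of detected protein-coding genes. All 3 efflux genes were highest in replicate 3 in scaled counts, beside 32.8%, but in TPM Abcg1 was highest in replicate 1. Uptake and transfer had median deviations of 0.22, −0.04 and −0.18 in replicates 1, 2 and 3. Of its 5 genes, Npc2, Lpl and Mylip were highest in replicate 1, beside 35.1% of all genes tested. In TPM 60% of the list was highest there, beside 48% of detected protein-coding genes. These shifts are small beside the calls for Ch25h and Scd1 and are given as descriptions. Replicate 2 was also the deepest library, and the part of depth was not tested.

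**Figure D5:**
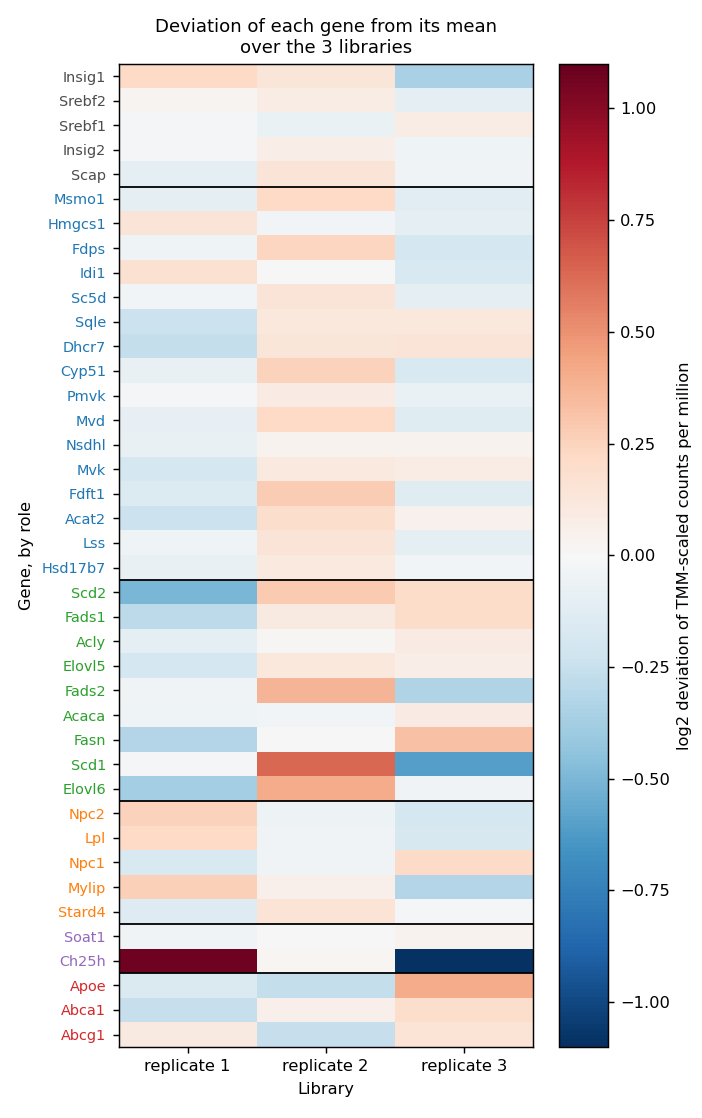
Deviation of each gene from its own mean over the 3 libraries, in log2 of TMM-scaled CPM (red above, blue below), with genes grouped and coloured by role. The cholesterol synthesis block is mostly red in replicate 2 (median 0.14), and Ch25h shows the widest range, followed by Scd1.

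Of 36 further genes of the same pathways 30 were detected and none of the 34 that could be tested was called variable, beside the same 1.96% of genes. Their median was 7.69 TPM. The highest were Plin2, the lipid droplet coat protein, with 213, 167 and 139 TPM, Lipa, the lysosomal acid lipase that frees cholesterol from its esters, with 163, 178 and 122 TPM, and Pltp, the phospholipid transfer protein, with 145, 93.2 and 142 TPM. Not detected were the intestinal sterol transporter Npc1l1 (0 counts in all libraries), the receptor Vldlr (0.037 TPM), the triglyceride synthase Dgat2 (0.147 TPM), the mitochondrial carboxylase Acacb (0.197 TPM), the sterol esterifying enzyme of liver and intestine Soat2 (0.753 TPM) and malic enzyme Me1 (1.13, 1.24 and 0.67 TPM). Among esterifying enzymes Soat2 thus had 0.753 ± 0.24 TPM beside 133 ± 6.03 TPM for Soat1, and among carboxylases Acacb had 0.197 ± 0.13 TPM beside 5.14 ± 0.15 TPM for Acaca (SD, n = 3 each). The liver X receptors Nr1h3 and Nr1h2, named here after their values were seen, had 30.9 ± 4.01 and 18.5 ± 1.68 TPM (SD, n = 3 each). Unlike Vldlr, the uptake receptors Msr1, Lrp1, Cd36 and Scarb1 were detected, and they too are named after their values were seen. They had 107 ± 24.5, 76.7 ± 8.98, 39.1 ± 1.17 and 14.7 ± 1.69 TPM (SD, n = 3 each).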

How the data were processed

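Cytosolic total RNA of 3 libraries was measured, and all 3 form 1 group. The gene table and 2 transcript tables of each library were made on mm10 with GENCODE M21, per the notes deposited with the samples. Transcriptome alignments underlie the gene table and 1 transcript table, called the first here, and raw reads underlie the other, called the second. No source used here names the programs. Expected counts and estimated counts, per the file headers, are reads assigned to genes or transcripts without normalization. The authors computed TPM values with effective lengths. The percent column is, per the file headers, a transcript's share of its gene's TPM. The posterior SD deposited with each count reached at most 0.603% of the count in the 40 genes.

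Genes were found by symbol through the second table. The members, role lists, pairs and motifs were chosen with earlier results of these data known. Values per library are given for genes in pairs, for the 3 highest and 2 lowest of each role and for genes called variable, and by mean or range for the rest. Among the further pathway genes, the 3 highest, those not detected and those called variable are given, with some receptors named after their values were seen. List medians of log2(TPM + 1) were compared within libraries, pair ratios had no pseudocount, and Srebf1 forms were told apart by translating the longest open reading frame. For variability, expected counts were rounded, filtered by filterByExpr, scaled by TMM and fitted in edgeR 4.0.16 under R 4.3.3, with an adjusted p threshold of 0.05, and was tested on simulated data. DESeq2 1.42.0 supplied an alternative dispersion trend. The number of alternatives was 62 planned and 7 added after seeing the data. No files of other units were used for values.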

Additional observations from a re-analysis of the deposited data

How the results depend on the processing

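The number of detected genes stayed within 1.5 times of 38 under all alternatives tried, while the number at 10 TPM moved to 33 with TPM rescaled over protein-coding genes and to 32 in the second table so rescaled. Rescaling raises the level of every protein-coding gene, and the share of all of them at 10 TPM was not counted after it. The rescaled counts thus cannot be set beside the 16.6% given for unscaled TPM. Efflux minus cholesterol synthesis was 4.38 with list means. Uptake and transfer minus cholesterol synthesis was 2.00 in the second table and 1.91 with leading transcripts. Efflux minus uptake and transfer was 1.27 in the second table, 1.31 there after rescaling, 1.52 with leading transcripts and 1.87 with list means. Fatty acid minus cholesterol synthesis was −0.03 in the second table, −0.04 there after rescaling and −0.37 with leading transcripts, and reversed to 0.21 with list means and 0.34 with detected genes only. The cause of these moves was not tested, except that leaving out Elovl6 is what the last alternative does. Pair ratios reversed for Abca1 over Apoe on expected counts (0.07) and for Soat1 over Abca1 on expected counts (−1.68) and leading transcripts (−0.31), and with Soat1-206 left out (−0.02). Expected counts, which carry transcript length, moved these by over 1.5 times: Scap over Insig1 (−2.51), Elovl5 over Elovl6 (3.61), Acly over Fasn (1.99), Abca1 over Abcg1 (1.26), Ch25h over Soat1 (−7.38), Mylip over Abca1 (−3.51), Sqle over Lss (0.94) and Lpl over Apoe (−0.85). Over all pair ratios and alternatives, those just named included, 99 values stayed within 1 SD, 24 moved further with the same sign and 4 reversed. Ch25h over Soat1 on expected counts is among the 99, as its SD was 1.14. Among transcript shares 53 held and 11 moved, and those that moved did so under the second table. Of the 40 genes, the number called variable was 1 with a common dispersion and 0 to 1 when 1 library was left out. It was 2 with RLE scaling, no low-count filter, the DESeq2 trend or the second table. Of all genes tested, 2.49% were called with a common dispersion, and 0.932, 0.828 and 0.654% without replicates 1, 2 and 3. The share was 1.98% with RLE scaling, 1.25% with no low-count filter, 1.83% with the DESeq2 trend and 1.72% with the second table. No paired analysis was possible because the 3 libraries form 1 group. Depth limits Ch25h most, with 63 counts in replicate 3, and the share of RNA that is noncoding scales every TPM.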
